A study of Mus musculus with 4 samples.

Results

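The tubulin genes were followed in hippocampal RNA-seq of a mouse model of perioperative neurocognitive disorder (PND), a decline of cognition after surgery. They were taken by gene name and are 10 of the 29300 genes in the count table. They comprise 3 α-tubulins (Tuba1a, Tuba1b, Tuba4a), 6 β-tubulins (Tubb2a, Tubb2b, Tubb3, Tubb4a, Tubb4b, Tubb5) and the γ-tubulin Tubg1. The mice were male C57BL/6 wild types, 7 to 8 months old. PND mice (n = 2) had an open fracture of the tibial shaft, fixed with an intramedullary nail. Control mice (n = 2) were sham animals without the fracture. Isoflurane anesthesia and the analgesic tramadol were given to both groups, so the comparison concerns the fracture operation and not the anesthesia. Hippocampi were taken at day 1 after surgery, and each library is from a separate mouse.

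Microtubules are hollow polymers of α- and β-tubulin heterodimers. In neurons they give axons and dendrites their shape and serve as tracks for the motor proteins that carry organelles and vesicles, while γ-tubulin, in a ring complex with partner proteins, seeds new microtubules. The isotypes of α- and β-tubulin are encoded by separate genes and differ mostly in the acidic tail at their carboxyl end, which faces the outside of the microtubule and is the site of many modifications.

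All 10 tubulin transcripts fell in PND hippocampus. The mean changes ran from -21.4% for Tubg1 to -37.5% for Tubb4a, which did not differ beyond its error from Tubb3 (-35.7%), and the median log2 fold change of the 10 genes (PND over control) was -0.57, beside 0.01 over the 17144 genes tested. Genes were tested by edgeR's quasi-likelihood method, p-values were adjusted over the whole table after Benjamini and Hochberg, and an adjusted p below 0.05 was the threshold, and 12.8% of all genes tested passed it in the downward direction. When the dependence of each library's counts on the length and the GC content of transcripts was removed, all 10 log2 fold changes stayed negative, with a median of -0.39, but 0 of 10 genes passed the threshold in that fit (adjusted p from 0.052 to 0.59), where 1.79% of all genes were called lower.

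Total counts were 17562999 and 18573386 for the control libraries and 15763432 and 16576331 for the PND libraries. Tubulin transcripts are abundant in this tissue. The 10 genes together took 0.421% and 0.448% of all counts in control hippocampus and 0.323% and 0.281% in PND hippocampus, and the lowest count behind any value of theirs was 537. Levels are given as CPM, that is read counts brought to a common library size with TMM factors, and levels of different genes are set side by side only as CPM per kilobase of annotated exons. Both PND libraries had a higher share of counts from mitochondrially encoded mRNA (4.45% and 4.49%) than the control libraries (2.82% and 2.53%). Choroid plexus and ependymal markers summed to 148 CPM in control mouse 1 but to 5446 CPM in control mouse 2 and to 2059 and 3464 CPM in the PND mice, so control mouse 1 stood apart in that respect. Without control mouse 1, 9 of the 10 tubulin genes passed the threshold, all but Tubg1.

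The coding sequences show how closely the genes are related, which bears on how well their reads can be told apart. The last 60 bases of the coding sequence encode most of the tail by which isotypes differ. They are shown for the α-tubulin Tuba4a, for the nearly identical Tubb2a and Tubb2b, and for Tubb3 as the neuronal isotype, from GENCODE M21 transcripts (5′ to 3′), with the last sense codon and the stop codon in capitals.
Tuba4a: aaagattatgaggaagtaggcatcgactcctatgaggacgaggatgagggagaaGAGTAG
Tubb2a: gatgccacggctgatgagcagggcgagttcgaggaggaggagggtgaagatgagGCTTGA
Tubb2b: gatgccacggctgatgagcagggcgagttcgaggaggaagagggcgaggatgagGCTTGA
Tubb3: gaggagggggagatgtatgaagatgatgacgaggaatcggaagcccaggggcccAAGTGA
Tuba4a ends on the codon GAG and so lacks the encoded terminal tyrosine that is removed and put back in the detyrosination cycle of other α-tubulins. The runs of gag and gaa codons are the glutamates to which further amino acid chains are added in polyglutamylation. Over the whole coding sequence, Tuba1a and Tuba1b were 98.3% identical and Tubb2a and Tubb2b 96.5%. The other 14 pairs of β-tubulins were 81.4% to 84.6% identical, α- against β-tubulins 55.9% to 58.5%, and Tubg1 against the other 9 genes 52.8% to 54.4%.

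The first codons matter for another reason. Cells that hold too much free tubulin degrade tubulin mRNA while it is being translated, and the factor TTC5 recognises the first residues of the nascent α- or β-tubulin chain as they leave the ribosome. The first 24 coding bases are shown for 1 α-tubulin, for β-tubulins that spell this start with different codons, and for Tubg1, which has another start. The first 4 codons are in capitals.
Tuba1a: ATGCGTGAGTGCatctccatccat
Tubb2a: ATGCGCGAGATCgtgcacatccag
Tubb3: ATGAGGGAGATCgtgcacatccag
Tubb4a: ATGCGGGAAATCgtgcacctgcaa
Tubg1: ATGCCGAGAGAAatcatcacccta
In the order shown, the 5 genes changed by -29.5%, -33.9%, -35.7%, -37.5% and -21.4%. Whether the start of the coding sequence has a part in these differences was not tested.

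**Figure D1:**
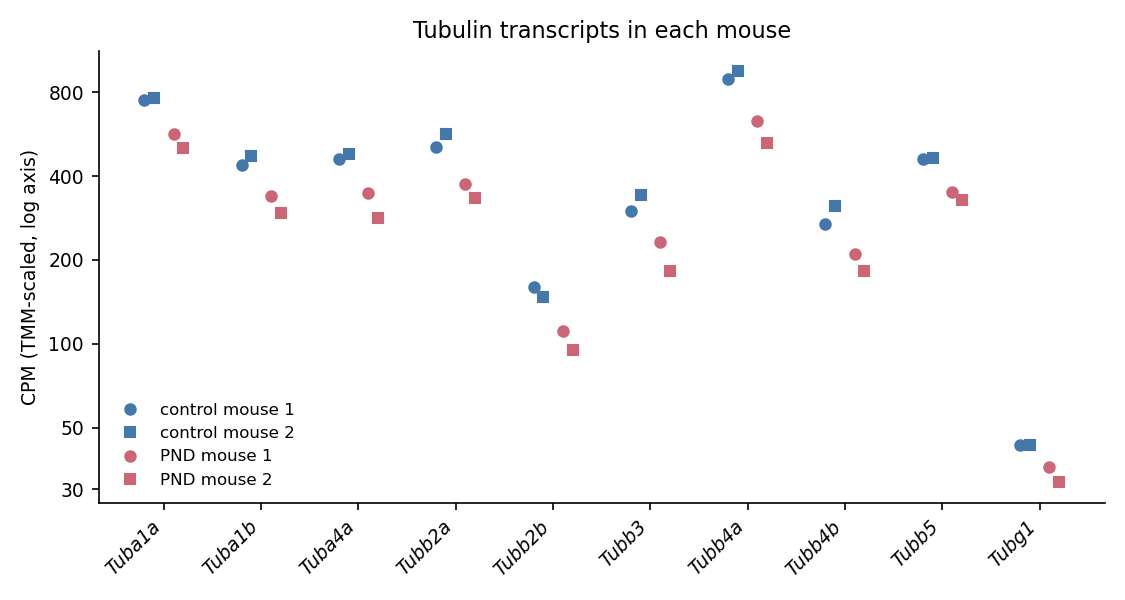
Level of each tubulin gene in each mouse, in TMM-scaled CPM on a log axis, with control mice in blue, PND mice in red, mouse 1 of each group as a circle and mouse 2 as a square. For all 10 genes the 2 PND mice lie below the 2 control mice, from Tubb4a at 897 and 953 against 632 and 524 CPM down to Tubg1 at 43.2 and 43.1 against 36.1 and 31.8 CPM.

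Among the α-tubulins, Tuba1a (ENSMUSG00000072235, chr15:98949841-98953551 on mm10, minus strand), the main α-tubulin of developing and adult neurons, stood at 753 and 765 CPM in the control mice and at 565 and 505 CPM in the PND mice. The groups did not overlap, and the log2 fold change was -0.50 ± 0.07 (SE, n = 2 per group, adjusted p = 0.0059 in edgeR's quasi-likelihood test). Tuba1b (ENSMUSG00000023004, chr15:98931425-98934565, minus strand), its neighbour on the chromosome and an α-tubulin of many cell types, stood at 438 and 472 CPM in the control mice and at 339 and 294 CPM in the PND mice. It fell by a similar amount, with a log2 fold change of -0.52 ± 0.08 (adjusted p = 0.0078 in the same edgeR test). Tuba4a (ENSMUSG00000026202, chr1:75214228-75219865, minus strand), the α-tubulin without an encoded terminal tyrosine and a gene linked to amyotrophic lateral sclerosis, stood at 462 and 481 CPM in the control mice and at 347 and 283 CPM in the PND mice. Its log2 fold change was -0.58 ± 0.10 (adjusted p = 0.0093), which did not differ beyond its error from that of Tuba1b.

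The 3 α-tubulin genes differ in how safely their reads can be placed. Of all 75-base windows of their exons, 70.4% in Tuba1a and 70.04% in Tuba1b also occur in another annotated gene. Among these are Tuba1c, processed pseudogenes and each other, so the split of counts between Tuba1a and Tuba1b is uncertain. Windows common to Tuba1a and Tuba1b make up 34.2% of those of Tuba1a and 31.7% of those of Tuba1b. Exons of Gm49450, a protein-coding gene, overlap both genes on the same strand. For Tuba4a the share found in another gene was 33.4%, all of it with Stk16, a kinase gene whose exons overlap it on the opposite strand. Whether the counting used the strand is not given in the sources used here, so reads of Stk16 may be part of the Tuba4a value. The windows are shorter than the reads sequenced by the authors. Shares of windows, here and below, are therefore not the share of reads that cannot be placed.

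The β-tubulins covered the widest range of levels. Tubb4a (ENSMUSG00000062591, chr17:57080066-57087782, minus strand), a brain β-tubulin found in neurons and prominent in myelinating oligodendrocytes, stood at 897 and 953 CPM in the control mice and at 632 and 524 CPM in the PND mice. Its log2 fold change was -0.68 ± 0.10 (adjusted p = 0.0061 in edgeR's quasi-likelihood test). Summed oligodendrocyte markers were 6368 and 5496 CPM in the control mice and 6294 and 4071 CPM in the PND mice. The sum was lowest in PND mouse 2, which was the lowest mouse for all 10 tubulin genes. Among the control mice, the one with the higher sum of these markers had the lower Tubb4a level. Of these 8 markers 0 fell and 1 rose, Ermn, a call lost without control mouse 2 (adjusted p = 0.12), without PND mouse 1 (adjusted p = 0.063) and after the correction for length and GC content (adjusted p = 0.69). Without PND mouse 2 the log2 fold change of Tubb4a was -0.54 (adjusted p = 0.0056). Tubb3 (ENSMUSG00000062380, chr8:123411424-123422015, plus strand), the class III β-tubulin used as a marker of neurons, stood at 301 and 343 CPM in the control mice and at 232 and 183 CPM in the PND mice. It had the widest error of the 10 genes, with a log2 fold change of -0.64 ± 0.12 (adjusted p = 0.013).

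Tubb2a (ENSMUSG00000058672, chr13:34074274-34078007, minus strand), a β-tubulin abundant in the adult brain, stood at 508 and 566 CPM in the control mice and at 376 and 335 CPM in the PND mice. Its log2 fold change was -0.60 ± 0.08 (adjusted p = 0.0060). Tubb2b (ENSMUSG00000045136, chr13:34126748-34130466, minus strand), its close copy with a known role in neuronal migration during cortical development, stood at 160 and 147 CPM in the control mice and at 111 and 95.2 CPM in the PND mice. Its log2 fold change was -0.58 ± 0.09 (adjusted p = 0.0074). The pair share exon sequence, with 43.2% of the windows of Tubb2a and 30.2% of those of Tubb2b found elsewhere, mostly in one another, so their separate values are less certain than those of Tubb3, Tubb4a and Tubb5, which share 0 windows with any other gene.

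Tubb4b (ENSMUSG00000036752, chr2:25222160-25224702, minus strand), a widely expressed β-tubulin that is also a component of cilia, stood at 269 and 314 CPM in the control mice and at 209 and 183 CPM in the PND mice. Its log2 fold change was -0.57 ± 0.10 (adjusted p = 0.0097), and 29.9% of its windows occur elsewhere, chiefly in the pseudogene Tubb4b-ps1. Tubb5 (ENSMUSG00000001525, chr17:35833921-35838306, minus strand), the β-tubulin of dividing and many other cells, stood at 460 and 466 CPM in the control mice and at 350 and 329 CPM in the PND mice. It had the smallest fall of the β-tubulins and the smallest error of the 10 genes, with a log2 fold change of -0.45 ± 0.06 (adjusted p = 0.0054). Tubg1 (ENSMUSG00000035198, chr11:101119938-101126419, plus strand), a γ-tubulin of most cell types, stood at 43.2 and 43.1 CPM in the control mice and at 36.1 and 31.8 CPM in the PND mice. Its log2 fold change was -0.35 ± 0.09 (adjusted p = 0.0385 in edgeR's quasi-likelihood test), and this call was lost in 8 of 12 alternative settings. Among these were DESeq2 (adjusted p = 0.054) and edgeR without control mouse 1 (adjusted p = 0.095), without control mouse 2 (adjusted p = 0.11) or without PND mouse 2 (log2 fold change -0.25, adjusted p = 0.17).

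**Figure D2:**
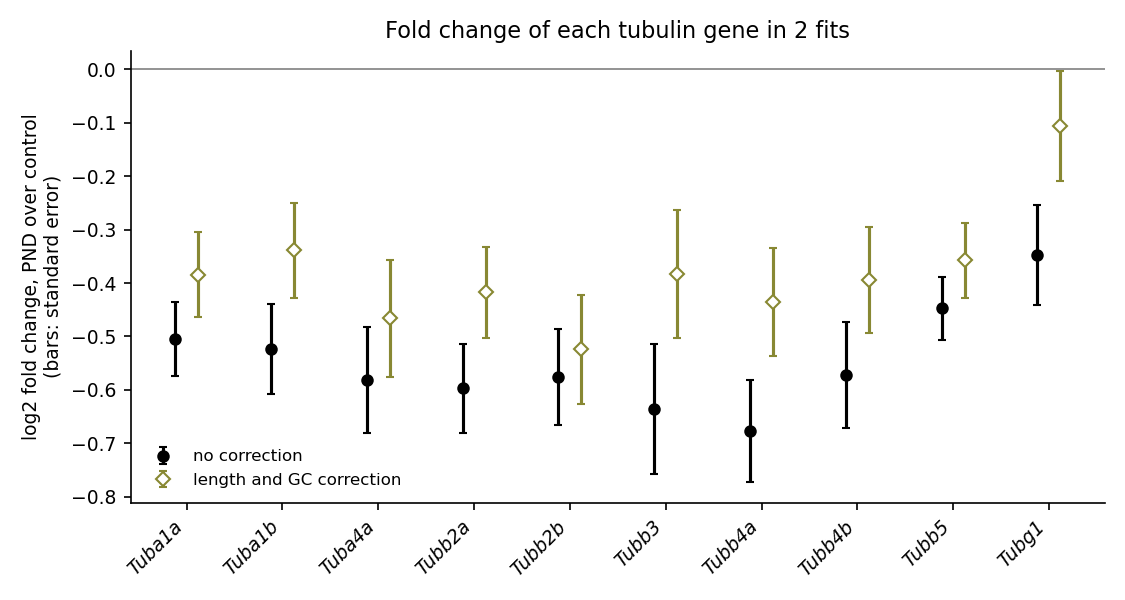
Log2 fold change (PND over control) of each tubulin gene, with bars for the standard error, without correction (filled circles) and with the correction for transcript length and GC content (open diamonds). Without correction the values lie between -0.68 for Tubb4a and -0.35 for Tubg1, and after the correction between -0.52 for Tubb2b and -0.11 for Tubg1.

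Across the mice the genes kept a common order. Both PND mice were below both control mice for 10 of 10 tubulin genes, a pattern found for 32.2% of all genes tested. PND mouse 2 was the lowest mouse for 10 of 10 genes and control mouse 2 the highest for 8 of 10, with Tubb2b and Tubg1 the exceptions. The share of all genes tested with the same lowest or highest mouse is not given here, so this order is not shown to be particular to tubulins. Among 10296 genes with a mean of at least 10 CPM, 616 lay close to the mean tubulin pattern (see Other observations). With a fold of at most 0.67 required in addition to the adjusted p, 4 of 10 genes passed (Tuba4a, Tubb2a, Tubb3 and Tubb4a), beside 2.25% of all genes tested. This smaller count depends on single mice: Tuba4a at a fold of 0.668 is just inside, Tubb2b at 0.671 and Tubb4b at 0.672 are just outside, and the count was 8 without PND mouse 1, 0 without PND mouse 2 and 2 without control mouse 2. In bulk tissue, fewer cells of a type and less RNA per cell cannot be told apart.

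Per kilobase of exon, Tuba1a (418 and 424 CPM per kilobase in the control mice) and Tubb4a (403 and 428) were the most abundant of the 10 and did not differ beyond their spread. Tubb2a followed at 316 and 352, Tuba1b at 234 and 252 and Tubb3 at 161 and 184 CPM per kilobase. Tubb5 (138 and 140.1), Tubb4b (129 and 150) and Tuba4a (125 and 130) came next, where Tubb4b overlapped both of the others. Their place below Tubb3 depends on the length used. Annotated exons of Tubb5, Tubb4b and Tuba4a span 3327, 2088 and 3701 bases, but their longest transcripts have 2649, 1598 and 2840. For Tubb3 both lengths are 1868. Tubb2b was lower at 69.5 and 64.3, and Tubg1 lowest at 19.1 and 19.03 CPM per kilobase. In the PND mice Tuba1a (313 and 280) and Tubb4a (284 and 235) again overlapped.

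The sums over each class, in CPM per kilobase, show the pools of transcript from which α- and β-tubulin are made. The α-tubulin pool was 776 and 806 in control mice and 588 and 514 in PND mice, a change of the mean by -30.4%. The β-tubulin pool was 1216 and 1318 in control mice and 895 and 769 in PND mice, a change of -34.3%. Neither pool overlapped between groups, but with 2 mice against 2 the exact two-sided permutation test cannot give a p below 0.333, which is the value both pools had (0.619 after Benjamini-Hochberg adjustment over 13 such tests). The β to α ratio was 1.57 and 1.63 in control mice and 1.52 and 1.498 in PND mice (exact permutation p = 0.333).

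**Figure D3:**
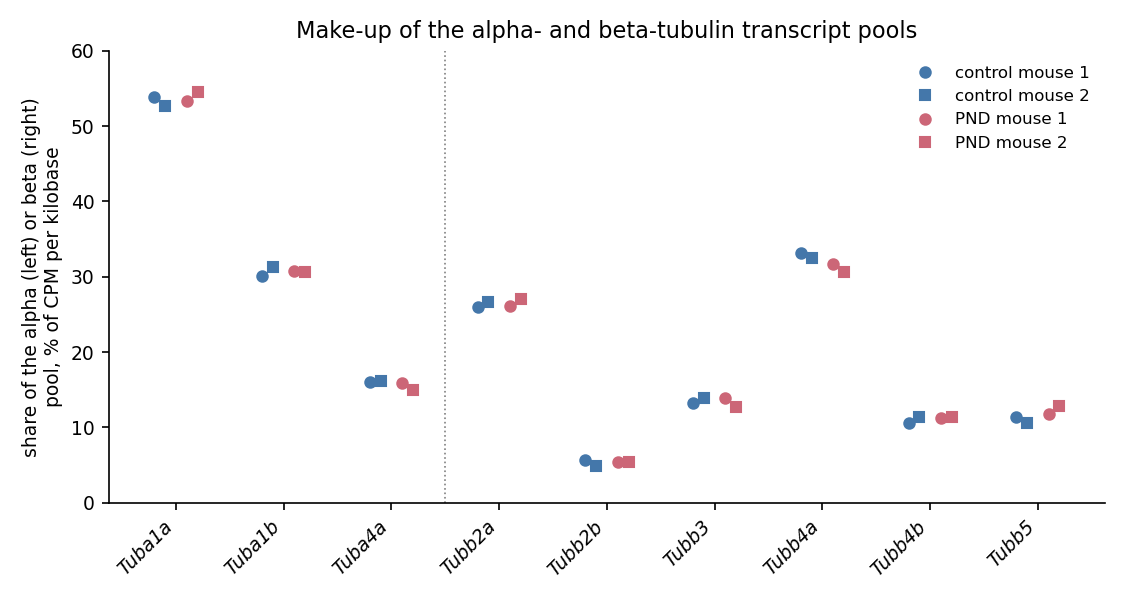
Share of each isotype in the α-tubulin pool and in the β-tubulin pool, in percent of summed CPM per kilobase, with 1 point per mouse (control mice in blue, PND mice in red). The composition is close to the same in the 4 mice, with Tuba1a at 52.6% to 54.5% of the α pool and Tubb4a at 30.6% to 33.1% of the β pool.

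Within the pools the mean share of Tubb4a differed by -1.62 percentage points (-1.08 without PND mouse 2 and -2.17 without PND mouse 1) and that of Tubb5 by 1.31 points (0.76 without PND mouse 2 and 1.86 without PND mouse 1). Tuba1a held 53.8% and 52.6% of the α-tubulin pool in control mice and 53.3% and 54.5% in PND mice, which overlapped. Tubb4a held 33.1% and 32.4% of the β-tubulin pool in control mice and 31.7% and 30.6% in PND mice, and did not overlap. Tubb5 held 11.4% and 10.6% in control mice and 11.8% and 12.9% in PND mice, a difference in the other direction that did not overlap either. For Tubb4a, Tubb5 and Tuba4a (16.1% and 16.1% of the α pool against 15.96% and 14.9%) the exact two-sided permutation p was 0.333, the smallest possible, and the shares of the other 6 isotypes overlapped between groups.

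Of 10 other tubulin genes listed, 8 were in the table and 6 had counts enough to be tested, of which 2 fell and 0 rose. Tubg2, the second γ-tubulin and one that is enriched in brain, stood at 51.1 and 51.2 CPM in the control mice and at 34.9 and 38.8 CPM in the PND mice, with a log2 fold change of -0.47 ± 0.09 (adjusted p = 0.011 in edgeR's quasi-likelihood test). Per kilobase of exon Tubg2 was above Tubg1 in all 4 mice. It was at 29.2 and 29.2 against 19.1 and 19.03 CPM per kilobase in control mice and at 19.9 and 22.1 against 15.9 and 14.0 in PND mice. In PND mouse 1 this order depends on the length used. Annotated exons of Tubg1 span 2266 bases but its longest transcript 1802, while both lengths are 1754 for Tubg2. Tuba1c, an α-tubulin of proliferating cells, stood at 19.1 and 27.6 CPM in the control mice and at 13.0 and 14.6 CPM in the PND mice, with a log2 fold change of -0.76 ± 0.19 (adjusted p = 0.032). The call of Tuba1c was lost without control mouse 2 (log2 fold change -0.47, adjusted p = 0.11) or without PND mouse 1 (adjusted p = 0.057). Tubb6, a β-tubulin of many non-neuronal cells, had a log2 fold change of -0.64 ± 0.20 (adjusted p = 0.060), and Tuba8 one of -0.42 ± 0.18 (adjusted p = 0.13). Tubd1 and Tube1, the δ- and ε-tubulins of centrioles, had log2 fold changes of 0.16 ± 0.20 (adjusted p = 0.58) and 0.23 ± 0.25 (adjusted p = 0.53). Tuba3a, a testis α-tubulin, had counts of 1, 2, 0 and 2 in control mouse 1, control mouse 2, PND mouse 1 and PND mouse 2, and Tubb1, the β-tubulin of platelets, had 0, 0, 1 and 1. The pseudogene Tubb4b-ps1, which shares sequence with Tubb4b, had counts of 49, 73, 29 and 29 (log2 fold change -0.95 ± 0.30, adjusted p = 0.061), and Tubb4b-ps2 had 1, 0, 0 and 0.

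The genes that fold, nucleate, modify and sever tubulin did not share one direction. Of 89 genes on these lists and the list of other tubulins, 84 were tested, and 17 (20.2%) fell and 12 (14.3%) rose, beside 12.8% lower and 13.1% higher over all genes tested. Their median log2 fold change was -0.03. With the correction for length and GC content, 2 of them were called lower and 0 higher, and of the pathway genes given here by name only Cct7 kept its call.

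Tubulin folding begins on the chaperones prefoldin and CCT and ends with cofactors that join α- to β-tubulin. Of the 7 folding cofactors, 3 fell and 2 rose. Tbca, the cofactor that holds β-tubulin, stood at 11.8 and 12.8 CPM in the control mice and at 21.6 and 21.4 CPM in the PND mice and rose by 0.80 ± 0.12 on the log2 scale (adjusted p = 0.0063 in edgeR's quasi-likelihood test, and 0.43 with adjusted p = 0.11 after the correction). Tbcb, which holds α-tubulin, fell by 0.48 ± 0.07 (adjusted p = 0.0071). Arl2, a small GTPase that works with the cofactors, fell by 0.66 ± 0.09 (adjusted p = 0.0061). Tbcc fell by 0.58 ± 0.15 (adjusted p = 0.032), a call lost without control mouse 2 (-0.42, adjusted p = 0.15), PND mouse 1 (adjusted p = 0.059) or PND mouse 2 (adjusted p = 0.075).

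Of the 15 CCT and prefoldin genes, 3 fell and 3 rose. Vbp1, a prefoldin subunit, stood at 19.7 and 17.7 CPM in the control mice and at 46.2 and 49.9 CPM in the PND mice (log2 fold change 1.36 ± 0.10, adjusted p = 0.0039 in edgeR's quasi-likelihood test). After the correction Vbp1 was at 0.45 (adjusted p = 0.053). Pfdn4, another prefoldin subunit, rose by 0.93 ± 0.26 (adjusted p = 0.042), a call lost without control mouse 2 (log2 fold change 0.65, adjusted p = 0.18), PND mouse 1 (adjusted p = 0.11) or PND mouse 2 (adjusted p = 0.052). The CCT subunits Cct7 and Cct5 fell by 0.45 ± 0.08 (adjusted p = 0.0096) and 0.35 ± 0.07 (adjusted p = 0.016, and 0.059 without PND mouse 2). After the correction for length and GC content 2 pathway genes were called lower, both on this list, and 0 were called higher. Cct7 had a log2 fold change of -0.69 (adjusted p = 0.027), and Tcp1, another CCT subunit, went from 0.002 without the correction to -0.46 with it (adjusted p = 0.030).

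Of 17 genes of the γ-tubulin ring complex and its recruiting factors, 2 fell and 2 rose. Mzt1, a small subunit needed to activate the ring complex, stood at 42.7 and 38.6 CPM in the control mice and at 68.1 and 69.2 CPM in the PND mice and rose by 0.76 ± 0.08 on the log2 scale (adjusted p = 0.0045 in edgeR's quasi-likelihood test). Haus6, of the augmin complex, rose by 0.68 ± 0.18 (adjusted p = 0.037). Mzt2 fell by 0.51 ± 0.11 (adjusted p = 0.019) and Tubgcp2, a core subunit of the ring, by 0.34 ± 0.07 (adjusted p = 0.021). Mzt1 kept its call whichever mouse was left out, but after the correction for length and GC content its log2 fold change was 0.07 (adjusted p = 0.66). Haus6 lost it without control mouse 1, control mouse 2 or PND mouse 2 (adjusted p up to 0.16), Mzt2 without control mouse 2 (adjusted p = 0.081) or PND mouse 1 (adjusted p = 0.051), and Tubgcp2 without control mouse 1, control mouse 2 or PND mouse 1 (adjusted p up to 0.073).

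Enzymes that modify tubulin gave 6 lower and 2 higher genes of 27 tested. Tpgs1, a subunit of the tubulin polyglutamylase, fell by 0.60 ± 0.09 (adjusted p = 0.0066), its catalytic partner Ttll1 by 0.34 ± 0.09 (adjusted p = 0.039) and Ttll12 by 0.65 ± 0.13 (adjusted p = 0.015). Agbl3, a carboxypeptidase that shortens glutamate chains, rose by 0.79 ± 0.16 (adjusted p = 0.017). The calls of Agbl3 without control mouse 1 (adjusted p = 0.062), of Ttll12 without control mouse 2 (adjusted p = 0.067) and of Ttll1 without control mouse 1, control mouse 2 or PND mouse 2 (adjusted p up to 0.18) were lost. Among the 4 genes of tubulin mRNA autoregulation 0 fell and 1 rose, Cnot7, a deadenylase of the CCR4-NOT complex, by 0.71 ± 0.08 (adjusted p = 0.0047). After the correction Cnot7 was at 0.05 (adjusted p = 0.79). Of the 8 severing genes, Katnbl1 rose by 1.33 ± 0.17 (adjusted p = 0.0053) and Spast, the spastin gene, by 0.66 ± 0.09 (adjusted p = 0.0057). After the correction they were at 0.57 (adjusted p = 0.13) and 0.34 (adjusted p = 0.10).

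**Figure D4:**
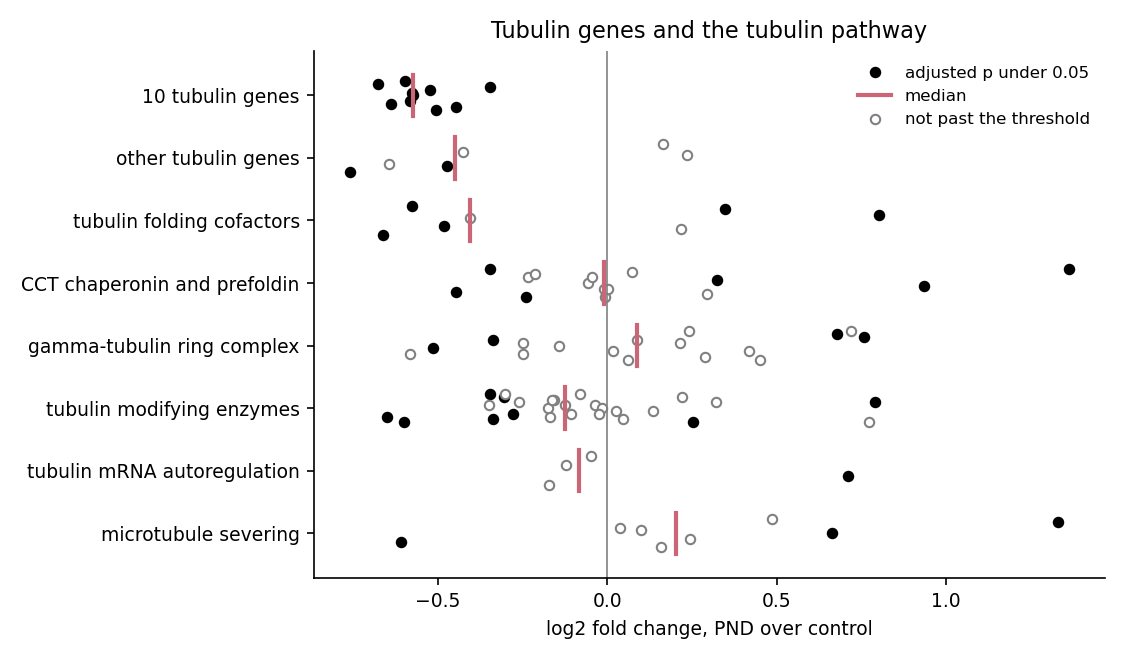
Log2 fold change (PND over control) of every tested gene on each list, 1 point per gene, filled where the adjusted p was under 0.05, with the list median as a bar. The 10 tubulin genes lie between -0.68 and -0.35, whereas the other lists spread to both sides of 0, with medians from -0.45 for the other tubulins to 0.20 for the severing genes.

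GC content went with the direction of change over the whole table and the tubulin genes are rich in GC. Across 17120 genes with an annotated sequence, the log2 fold change (PND over control) had a Spearman correlation of -0.63 with GC content, given as a description across genes, which are not replicates and share the 4 libraries. The 10 tubulin genes had 51.2% (Tubb2b) to 57.9% (Tubb3) GC in their longest annotated transcript, with a median of 55.0%, beside 49.6% over all genes tested. When genes were cut into 8 equal classes by GC content, Tubb3, Tubb4a and Tubg1 fell into the class richest in GC, whose median log2 fold change was -0.34 and of which 38.4% were called lower. Tuba1b, Tubb2a and Tubb4b were in the class before it (median -0.25, 26.6% called lower), Tuba1a, Tuba4a and Tubb5 in the next (-0.17, 18.4%), and Tubb2b in the one after that (-0.07, 10.3%). Of the 10 genes, 9 lay below the median of their class by more than 0.2 on the log2 scale, whereas Tubg1 at -0.35 lay at the median of its class.

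**Figure D5:**
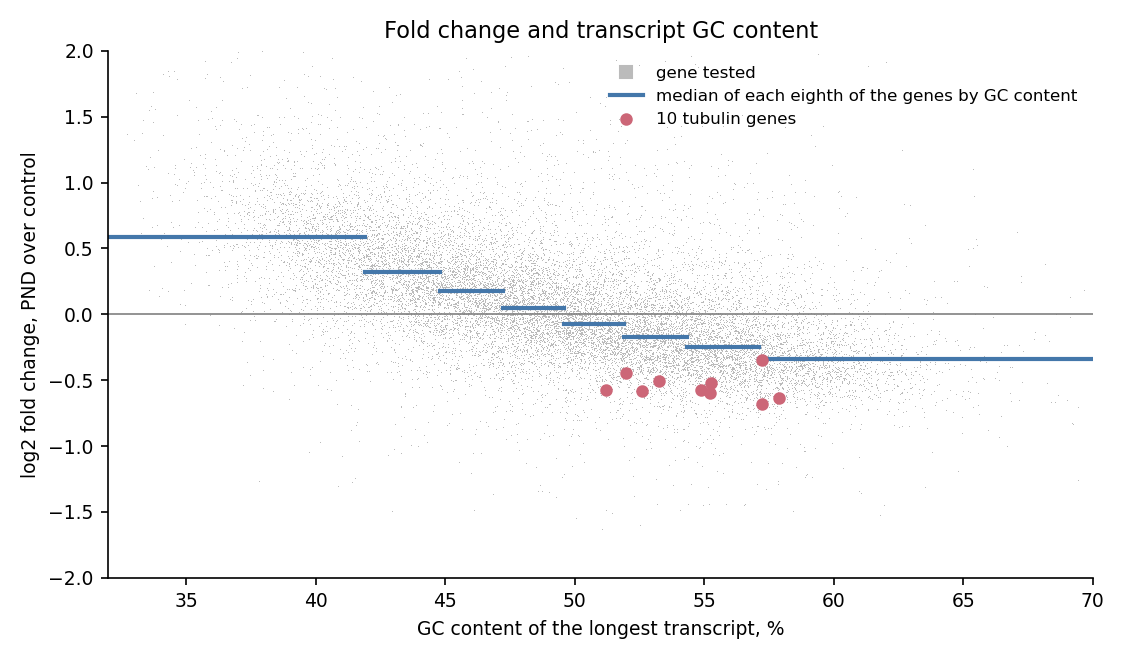
Log2 fold change (PND over control) against GC content of the longest annotated transcript in percent, 1 grey point per gene tested, with the medians of the 8 GC classes as blue lines and the 10 tubulin genes in red; 96 of 17120 genes lie outside the plotted range. The medians fall towards high GC content, and 9 of the 10 tubulin genes lie below the line, with Tubg1 on it.

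After the correction for length and GC content, Tubb2b had the lowest log2 fold change (-0.52, adjusted p = 0.052), followed by Tuba4a (-0.47, adjusted p = 0.074) and Tubb4a (-0.44, adjusted p = 0.074). Tubg1 was at -0.11 (adjusted p = 0.59). Over the whole table this fit called 307 genes lower and 124 higher, 71.2% of its calls being lower, beside 2201 lower and 2249 higher, 49.5% lower, without the correction. A trend with GC content that arose in the tissue and one that arose in the libraries cannot be told apart in this design.

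Markers of cell types were read beside the tubulins, since isotypes differ between cell types. The 10 neuronal markers summed to 8078 and 7832 CPM in the control mice and to 7313 and 6973 CPM in the PND mice, with 3 lower (Eno2, Syp and the glutamate transporter gene Slc17a7) and 1 higher (Gad2). After the correction for length and GC content Syp kept its call (-0.73, adjusted p = 0.022), and Eno2 (-0.17, adjusted p = 0.18), Slc17a7 (-0.15, adjusted p = 0.27) and Gad2 (0.03, adjusted p = 0.89) did not. Snap25, which had a log2 fold change of 0.01 without the correction (adjusted p = 0.95), was called lower with it (-0.62, adjusted p = 0.031), and the median of the list went from -0.04 to -0.16. Of 8 markers of immature neurons, a stage at which Tubb3, Tuba1a and Tubb2b are typically high, 7 were tested and 0 fell, while Stmn1, Dcx, Neurod1 and Sox11 rose. Gad2 and Dcx lost their calls without control mouse 1, control mouse 2 or PND mouse 1 (adjusted p up to 0.17 and 0.14), and Neurod1 without control mouse 2 (adjusted p = 0.090) or PND mouse 2 (adjusted p = 0.059). After the correction Stmn1 kept its call (0.52, adjusted p = 0.045), Sox11 (0.76, adjusted p = 0.051) and Neurod1 (0.36, adjusted p = 0.21) did not, and Dcx was at -0.08 (adjusted p = 0.74). Their sums were 365 and 343 CPM in the control mice and 443 and 413 CPM in the PND mice. Precursors of oligodendrocytes had 2 of 6 markers lower, with sums of 300.2 and 294 against 252 and 232 CPM. These were Olig1, whose call was lost without control mouse 1 (adjusted p = 0.13) or PND mouse 2 (adjusted p = 0.12), and Cspg4, whose call was lost without control mouse 2 (adjusted p = 0.087) or PND mouse 1 (adjusted p = 0.066), and neither was called after the correction. Summed markers of hippocampal subfields were 1376 and 1217 CPM in the control mice and 1378 and 1223 CPM in the PND mice. Within that list Wfs1 and Fibcd1 fell by 0.70 ± 0.12 (adjusted p = 0.0085) and 0.64 ± 0.06 (adjusted p = 0.0043) on the log2 scale, while Zbtb20 rose by 0.44 ± 0.08 (adjusted p = 0.012) and Neurod6 rose by 0.53 ± 0.13 (adjusted p = 0.029, lost without control mouse 2 or PND mouse 1). None of these 4 was called after the correction, and none of the markers of any list was at 0 in all libraries. Microglial markers summed to 349 and 341 against 348 and 362 CPM, astrocyte markers to 4705 and 4638 against 5005 and 4760 CPM and endothelial markers to 234 and 244 against 251 and 340.4 CPM. Of these, 1 microglial marker rose (P2ry12), 2 astrocyte markers fell (Aldoc, Aldh1l1) and 3 rose (Aqp4, Gja1, Slc1a2), and 2 endothelial markers rose (Flt1, Slco1a4), with 0 called after the correction. Aldh1l1 and Slc1a2 lost their calls without control mouse 2 or PND mouse 1 (adjusted p up to 0.089 and 0.11), and Flt1 without control mouse 1 or PND mouse 2 (adjusted p up to 0.079). The part of cell composition in the tubulin values was not tested.

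Promoter sequences were looked up because the genes moved together. RefSeq promoters (GRCm38.p6) matched 8 of the 10 genes, all but Tubb2b and Tubg1. In the 250 bases before the start site, on either strand, the GC box GGGCGG was present in 6 of 8 tubulin genes and in 32.7% of 32851 promoters, and the CCAAT box in 4 of 8 and in 33.8%. The TATA box TATAAA was present in 1 of 8, Tubb2a, and in 12.4% of all promoters, and the NRF-1 motif, a palindrome rich in GC, in 0 of 8 and in 0.782%. None of the first 3 motifs contains another. The 120 bases next to the start are shown for Tubb2a, the gene with the TATA box (chr13:34078009-34078128, minus strand), and for Tubb4b, which had the most CCAAT boxes (chr2:25224703-25224822, minus strand), with motif letters in capitals.
Tubb2a: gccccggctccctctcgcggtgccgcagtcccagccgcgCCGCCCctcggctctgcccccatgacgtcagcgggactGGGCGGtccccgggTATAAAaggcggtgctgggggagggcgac
Tubb4b: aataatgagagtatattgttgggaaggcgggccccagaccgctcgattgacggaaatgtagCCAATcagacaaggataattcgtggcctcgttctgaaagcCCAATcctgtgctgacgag
Both promoters have a GC box in the 250 bases searched, that of Tubb4b before the bases shown, and of the pair only Tubb2a has the TATA box and only Tubb4b the CCAAT box. Tubb2a fell by 33.9% and Tubb4b fell by 32.8%. These matches are of letters only, and binding was not measured.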

How the data were processed

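Hippocampal total RNA of 2 control and 2 PND mice was enriched for poly(A) and sequenced as paired reads by the authors. The deposited table holds raw read counts per gene for 29300 genes on mm10. The submitters' processing notes name Bowtie2 2.2.3, HISAT2 2.1.0, TopHat2 and HTSeq 0.6.0, and use of strand in counting is not given in the sources used here. The authors also deposited normalized count signal, fold (ratio), log2 fold and p-value columns of their own comparison, which were not used.

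The count analysis used edgeR 4.0.16 under R 4.3.3. The function filterByExpr (minimum count 10) kept 17144 genes, TMM factors were 0.982 to 1.02, the quasi-likelihood test was that of glmQLFit and glmQLFTest, and p-values were adjusted after Benjamini and Hochberg. The 4 mice entered 1 fit without covariates, so an SE rests on a spread estimated jointly over genes. DESeq2 1.42.0, other scalings and filters, leaving out each mouse, a replicate block, and a correction for transcript length and GC content (mgcv 1.9.3, smooth terms with a basis of 8, used as offsets) were alternatives. The scripts were tested on simulated data. Exon lengths, GC content, shared 75-base windows and coding sequences came from GENCODE M21, in which 9 of the 10 tubulin genes have the coordinates of the table. Replicates of a group differed by more than counting error (chi-square per degree of freedom 13.4 in control and 8.45 in PND). Counting precision was not limiting for the 10 tubulin genes, with counts of 537 to 17411.

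Named were all 10 tubulin genes, all measured genes of the other tubulin list and their pseudogenes, up to 4 genes past the threshold with the largest change and a mean of at least 1 CPM on each pathway list, and the 3 genes outside those lists with a mean of at least 10 CPM that lay nearest to the tubulin genes in pattern. A gene of the severing list that the rule names is not reported here. Tcp1, Snap25 and the other called marker genes were named after their values were seen. The genes and lists were chosen with earlier results of these data known.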

Additional observations from a re-analysis of the deposited data

How the results depend on the processing

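The count of tubulin genes past the threshold (10) was 9 or 10 in 11 of 12 alternatives and 0 with the length and GC correction alone, and all 10 log2 fold changes were negative in each of the 12. The gene lost at 9 was Tubg1 each time (adjusted p over the alternatives 0.024 to 0.59). The count that also needed the fold (4) was 2 with library totals only, 0 with the length and GC correction, 0 with that correction and the replicate block, and 0 to 8 when 1 mouse was left out. Pathway genes called lower (17) were 10 without a filter, 2 with the length and GC correction, and 8 to 14 when 1 mouse was left out, and those called higher (12) were 7 without a filter, 0 with the length and GC correction and 3 with that correction and the replicate block. The Tubg1 level, with a log2 ratio of -0.35, ran from -0.44 to -0.26 when 1 mouse was left out. The cause of these changes was not tested. Over the whole table the calls were 2201 lower and 2249 higher, beside 1350 and 1315 without a filter, 1207 and 1201 without control mouse 2, 1347 and 1586 without PND mouse 2, 307 and 124 with the length and GC correction, and 1594 and 769 with that correction and the replicate block. As a paired analysis, the replicate number as a block gave 10 tubulin genes lower and 2626 and 2653 genes over the whole table. With the length and GC correction and the replicate block together, 9 tubulin genes were past the threshold (edgeR adjusted p from 0.0026 for Tubb2b to 0.038 for Tubb3) and Tubg1 was not (0.44). Deviations of same-numbered mice correlated at 0.22, which over only 2 pairs does not show whether the numbers pair the mice, and no label says that a number marks a shared batch or day. Where a fit left 1 mouse in a group, that mouse was assumed to vary like the other group. With 2 mice per group the error is known poorly, and reads shared between Tuba1a and Tuba1b and between Tubb2a and Tubb2b limit their separate values.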

Other observations

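The 3 genes nearest to the mean pattern of the 10 tubulin genes over the 4 mice, among 10296 genes with a mean of at least 10 CPM, were Gps1, a subunit of the COP9 signalosome (root mean square difference 0.011 on the log2 scale), Galnt18, an enzyme of protein O-glycosylation (0.014), and Gm5559 (0.015). Relative to the control mean, Gps1 stood at -0.46 in PND mouse 1 and -0.66 in PND mouse 2 on the log2 scale, and the mean of the tubulin genes at -0.44 and -0.65. In all, 616 genes lay within 0.1 of the tubulin pattern, so it was shared by many genes.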
